A study of Mus musculus with 20 samples.

Results

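The hearts of mice labelled TECRL-/-, called KO here, came as libraries with 2 kinds of names, S and TKO. The comparison described here sets the 6 KO libraries of the S series (S4 to S6 and S10 to S12) against the 6 of the TKO series (TKO1 to TKO6), 12 of the 20 libraries in all. The genotype label, the strain (C57BL/6), the tissue (heart) and the age (8 weeks) are the same on both sides, and no treatment is named. S4 to S6 and TKO1 to TKO4 are labelled female, and S10 to S12, TKO5 and TKO6 are labelled male. The wild type hearts serve as a second comparison of the same kind, with S1 to S3 (labelled female) and S7 to S9 (labelled male) against WT1 and WT2 (labelled male). RNA came from frozen hearts, and messenger RNA was taken by its poly-A tail. The labels do not say when each series was collected, how the heart was cut or when the libraries were made, so a series is only a set of libraries that share a kind of name. Read counts were scaled to a common library total (CPM) with edgeR's TMM factors. Genes of the X and Y chromosomes were left out of the tests, apart from 1 alternative that kept them (1637 genes called).

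A heart library holds RNA of whatever was in the tube. Ventricular muscle makes up most of the tissue, and atrial muscle, the fat and mesothelium on the surface, blood in the chambers and scraps of neighbouring organs add transcripts that ventricular muscle lacks. Atrial muscle cells use their own myosin light chains (Myl4, Myl7) and secrete the hormone made from Nppa, fat cells make Adipoq and Cfd, and the liver makes Alb. The state of the animal and of the RNA is also recorded, in clock genes that follow the time of day, in immediate early and heat shock genes, in interferon-stimulated genes, and in the balance of long, short and nuclear transcripts.

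Total counts ran from 12540002 (TKO5) to 15981588 (TKO4) among the 12 KO libraries, and 13319 to 14147 genes had at least 10 counts. Tecrl, the targeted gene, did not separate the genotype labels: it ran from 60.3 to 99 CPM in S (median 90.9) and from 70.3 to 97.8 CPM in TKO (median 87.6) among libraries labelled KO, and from 52 to 123 CPM in the 8 libraries labelled WT. Its levels in the 2 KO series overlapped (log2 fold change -0.01, adjusted p = 0.961). Sex-linked reads went against the sex label in 6 libraries of the S series. S4, S5 and S6, labelled female, had 179 to 211 CPM of Ddx3y, Eif2s3y, Uty and Kdm5d together and at most 0.266 CPM of Xist, the RNA that silences an X chromosome, while S7, S8 and S9, labelled male, had no read of these Y-linked genes and 279 to 358 CPM of Xist. Among KO hearts all 6 S libraries and TKO5 and TKO6 thus carried Y-linked reads, and TKO1 to TKO4 carried Xist. Among WT hearts the arrangement was the reverse, with Xist in all 6 S libraries and Y-linked reads in WT1 and WT2. Ventricular cardiomyocyte markers were present throughout, with Myl2, the ventricular light chain, at 5441 to 10581 CPM in the 12 KO libraries. The 46 pairs of libraries within groups all differed by more than counting noise. The labels do not tie each library to its own mouse, and the study describes fewer mice than there are libraries, so some libraries may share a mouse and p-values may be too small. The p-values measure the spread between these libraries.

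In the KO hearts 14075 genes had at least 10 counts in at least 3 libraries, and 1591 of them (11.3%) were called, which means a Benjamini-Hochberg adjusted p under 0.05 in the quasi-likelihood test of edgeR. Of these, 798 (5.67% of the genes tested) were higher in S and 793 (5.63%) were higher in TKO, and the median log2 fold change of all genes tested was -0.00249 (positive means higher in S). For 791 genes (5.62%) the CPM of the 6 S and the 6 TKO libraries did not overlap. The minimum of 10 counts in 3 libraries was met within each series by 12952 genes, of which 673 were higher in S and 704 higher in TKO. It was met within S alone by 477 genes, 125 of them called higher in S. Such a gene entered through the series where it is high, so its direction was largely set by the filter. Neither a fold nor a p is given for it. Within TKO alone 385 genes met the minimum, and a call higher in TKO has the same limit there. A further 261 met it within neither series alone. The split between the directions moved with the procedure. In the main edgeR fit 50.16% of the called genes were higher in S, and with upper-quartile scaling 60.11% of 1657 were. Limma on log2(FPKM + 1) called 1451 genes, 70.92% of them higher in S. The limma run changed the unit, the test and the gene filter together, and their parts were not tested. The count was 35 with the Y-linked level as a covariate, 5 with S10 to S12 against TKO5 and TKO6, and 2 in the 8 libraries that carried Y-linked reads, where TKO keeps 2 libraries. Library series and Y-linked level move together among KO hearts, and their parts in the counts were not tested. Without S4 to S6, whose sex-linked reads go against their label, 1517 genes were called, and without S11 and S12, which held the most atrial reads, 1387.

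**Figure D1:**
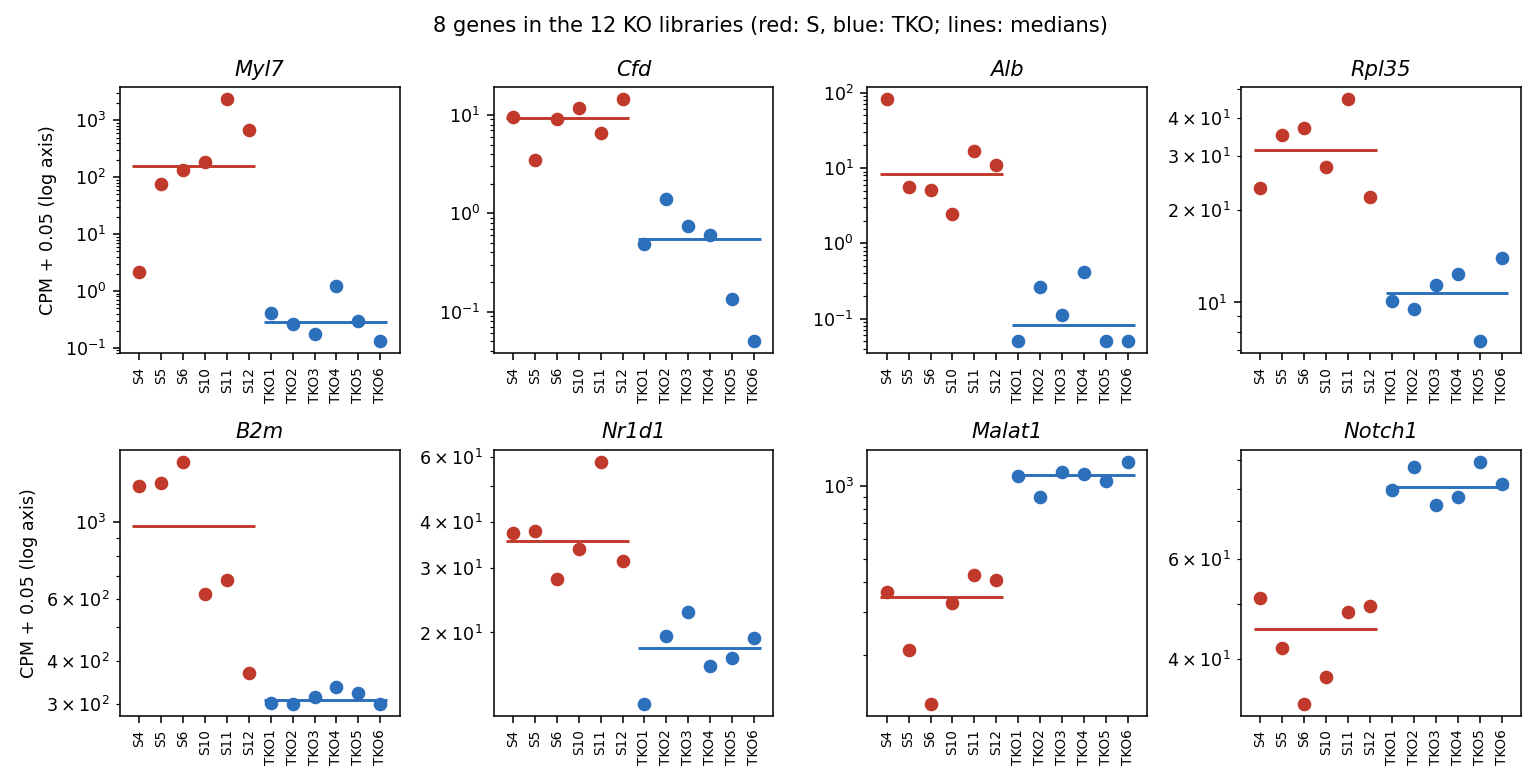
CPM plus 0.05 on a log axis for 8 genes in each of the 12 KO libraries, S in red and TKO in blue, with a line at each median. The series did not overlap for any of the 8. Myl7, Cfd and Alb met the count minimum within S alone and are among the genes picked by a rule that asks for no overlap. S11 stood highest of S for Myl7, and B2m was highest in S4, S5 and S6.

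Atrial transcripts were present in 5 of the 6 S hearts and nearly absent from the TKO hearts. Myl7, the atrial regulatory light chain of myosin (chr11:5896637-5898782, GRCm38, protein coding), ran from 2.11 to 2345 CPM in S (median 158) and from 0.0803 to 1.16 CPM in TKO (median 0.231). S4 had 2.11 CPM, S5 77.1, S6 134, S10 182, S12 691 and S11 2345 CPM, so the hearts of one series differed from each other far more than the TKO hearts did. No fold change or test is given for Myl7, Sln or Mybphl, which held at most 19, 3 and 3 counts in any TKO library and met the count minimum within S alone.

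Sln, sarcolipin, which inhibits the calcium pump in atrial muscle, ran from 1.15 to 973 CPM in S (median 70.3) and from 0 to 0.25 CPM in TKO (median 0.165). Mybphl, an atrial relative of myosin-binding protein C, ran from 0.256 to 257 CPM in S (median 16.8) and from 0 to 0.219 CPM in TKO (median 0.0664). Myl4 was lowest in S4 (5.75 CPM), just under TKO4 (5.8 CPM), and reached 2843 CPM in S11. Its log2 fold change was 7.79 (adjusted p = 0.00216), and 6.37 without S11. Nppa, the gene of atrial natriuretic peptide, ran from 5.62 to 1047 CPM in S (median 31.5) and from 4.95 to 15.6 CPM in TKO (median 10.3), so the series overlapped, and its log2 fold change was 4.35 (adjusted p = 0.0189). Without S11 it was 1.97 (adjusted p = 0.0355), and without S11 and S12 Nppa was not called (1.11). Bmp10, which is made in the trabeculae of the right atrium, was read in quantity in 1 heart: 174 CPM in S12 against at most 0.639 CPM in any other KO library, and it did not reach the minimum of 10 counts in 3 libraries. S11, with the most Myl7, had 0.0723 CPM of Bmp10. Of the 11 listed atrial genes 10 were tested, and 7 of them met the count minimum in each series; of these 7, Myl4, Dkk3 and Nppa were higher in S and 0 were lower, and the other 4 (Kcnj3, Gja5, Kcna5 and Tbx5) had log2 fold changes from -0.30 to 0.74. With the log2 summed atrial level as a covariate 637 genes of the whole table were called. In bulk tissue fewer cells of a type and less RNA per cell cannot be told apart.

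Fat cell transcripts were low throughout. Cfd, the secreted protease adipsin, ran from 3.42 to 14.4 CPM in S (median 9.28) and from 0 to 1.34 CPM in TKO (median 0.494). Cidec, a lipid droplet protein, ran from 0.958 to 4.88 CPM in S (median 2.99) and from 0 to 0.499 CPM in TKO (median 0.33). Car3, a carbonic anhydrase abundant in fat, had a log2 fold change of 2.88 (adjusted p = 0.00227). Plin1, which coats lipid droplets, was low throughout, at 0.316 to 2.77 CPM in S and at most 0.0833 CPM in TKO. Adipoq, the hormone adiponectin, overlapped between the series, with 0.342 CPM in S5 and 0.428 CPM in TKO4. Of the 9 listed adipocyte genes 7 were tested, but only Car3 and Trarg1 met the count minimum in each series. Car3 was called and Trarg1 was not (0.29), while the other 5 (Cfd, Cidec, Plin1, Retn and Adipoq) met it within S alone, so their calls count for no direction of the list. The summed level of the list, to which those 5 contribute, ran from 15.2 to 40.1 CPM in S and from 5.67 to 8.68 CPM in TKO. Pck1 and Cyp2e1, enzymes that both fat and liver express, ran from 2.6 to 14.6 and from 3.28 to 21.3 CPM in S, against at most 1.41 and 1.16 CPM in TKO. Both met the count minimum within S alone and were picked by a rule that asks for no overlap, so their separation is no result. Ucp1, the uncoupling protein of brown fat, was at 2.81, 1.92 and 0.379 CPM in S4, S5 and S6 and at most 0.132 CPM in the other 9 KO libraries, too low to be tested.

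Genes of the liver list, which was chosen after the values were seen, summed to 25.2 to 215 CPM in S, with S4 and S11 highest, and to at most 22.4 CPM in TKO, and 10 of the 13 tested members met the count minimum within S alone. Alb, serum albumin, ran from 2.41 to 81.7 CPM in S (median 8.27) and from 0 to 0.367 CPM in TKO (median 0.0312). The TKO libraries held at most 6 counts of Alb. S4 had 81.7 CPM, and the next highest was S11 with 16.8 CPM. Serpina3k, a protease inhibitor secreted by the liver, ran from 0.146 to 22.2 CPM in S, and 1 count of it was found in all 6 TKO libraries together. The 3 that met it in each series were Ahsg, a plasma glycoprotein, which was higher in S (2.82), and Ttr (-0.19) and Tat (1.43), which were not called. S4, with the highest Alb, was the S heart with the least atrial signal, while S11 was high in both. Kap, a protein of the kidney's proximal tubule, ran from 1.15 CPM (S4) to 48.6 CPM (S11) in S, with 45.1 CPM in S6. It had 0 counts in 5 TKO libraries and 7 counts in TKO6. Kap and Slc34a1, 2 of 3 tested members of a kidney tubule list chosen after the values were seen, met the count minimum within S alone, and the third, Cyp4b1, was not called (0.16). Of the lists for exocrine pancreas and testis no gene reached the count minimum, and the tested genes of the brain neuron list (2) and the intestine list (1) were not called and had no unadjusted p under 0.05.

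Most of the tested red cell genes, haemoglobins among them, were higher in S, with S11 highest. Hba-a2 ran from 11.6 to 127 CPM in S (median 23.6) and from 3.58 to 10.4 CPM in TKO (median 5.42) (log2 fold change 2.64, standard error 0.519, adjusted p = 0.00656), and its log2 fold change was 1.77 without S11. Hbb-bs had 882 CPM in S11 and 167 to 358 CPM in the other S libraries, against 83.8 to 206 CPM in TKO, where TKO4 was highest. Of 5 red cell genes tested 4 were higher in S and 0 were lower; without S11 and S12 it was 3 of 4 tested, and with the length trend described below removed 2 of 5. The Hba-a1 and Hba-a2 genes are near-identical copies, so reads can be shared between them and the split is uncertain. Lgals3, a lectin of macrophages and other cells, stood at 107 CPM in S11 and at 6.5 to 17 CPM in the other 5.

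**Figure D2:**
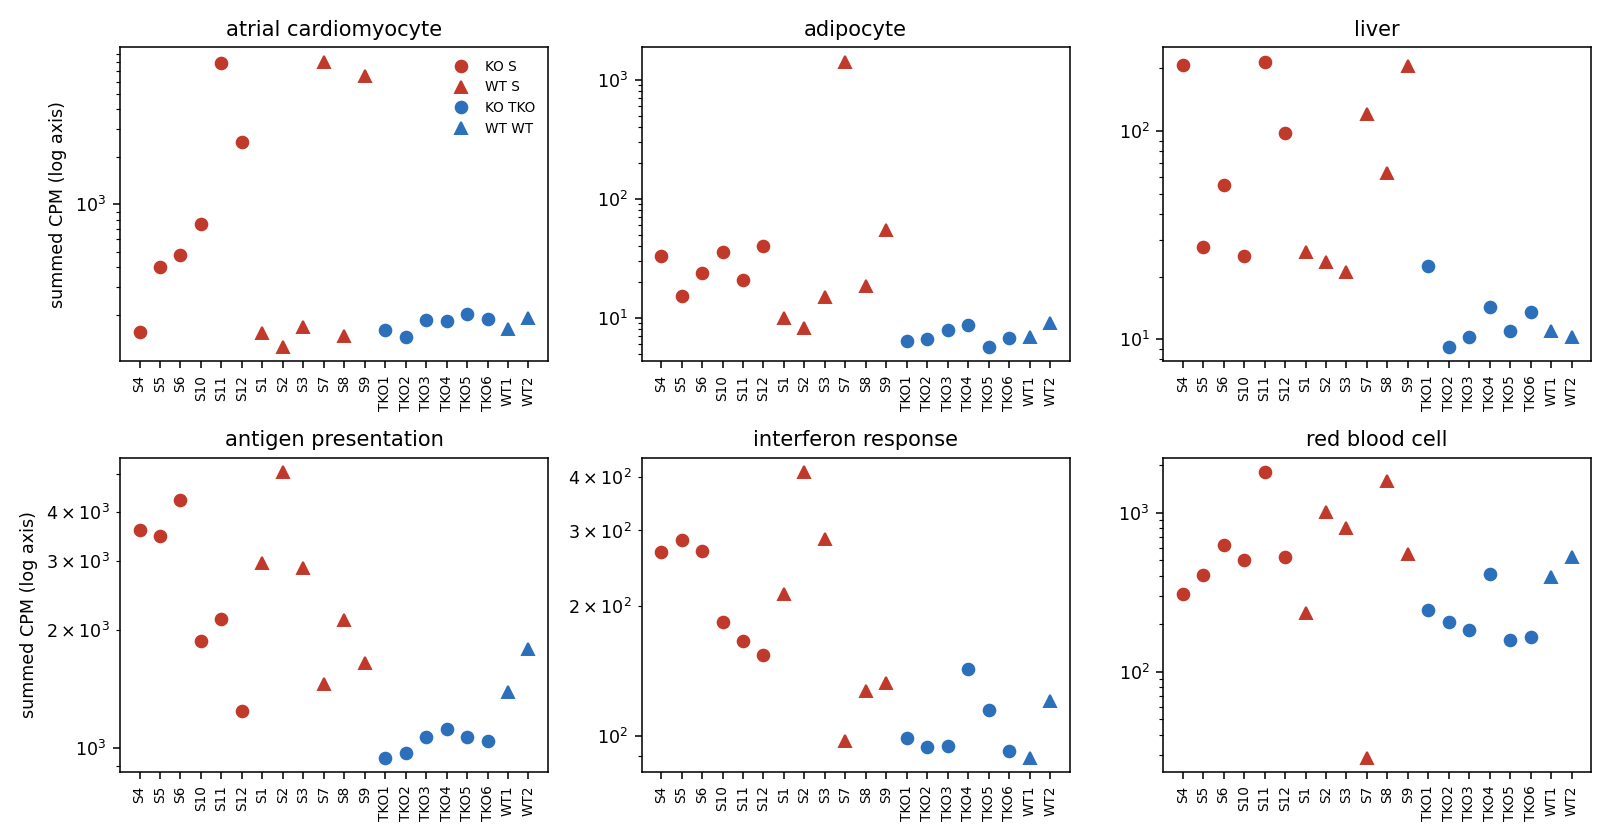
Summed CPM of 6 gene lists on log axes in all 20 libraries, KO as circles and WT as triangles, the S series in red and the TKO and WT series in blue. Atrial sums varied over a wide range within S and hardly within TKO, and antigen presentation was highest in S1 to S6.

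Many antigen presentation and interferon-stimulated genes were higher in the S hearts. Cells answer interferons through transcription factors that bind the interferon-stimulated response element, and the answer includes the immunoproteasome (Psmb8, Psmb9, Psmb10), the peptide transporter (Tap1, Tap2) and the class I molecules that show peptides on the surface (H2-K1, H2-D1, B2m). B2m, the small subunit of class I molecules (chr2:122147686-122153083, protein coding), ran from 369 to 1487 CPM in S (median 976) and from 301 to 337 CPM in TKO (median 309) (log2 fold change 1.61, standard error 0.265, adjusted p = 0.0028). S4, S5 and S6 had 1271, 1291 and 1487 CPM, S10 and S11 had 623 and 681 CPM, and S12 had 369 CPM, close to TKO4 with 337 CPM. The 6 TKO hearts lay within a narrow range. Psmb8 ran from 9.69 to 38.2 CPM in S (median 19) and from 3 to 6.18 CPM in TKO (median 4.85), a log2 fold change of 2.18 (adjusted p = 0.00216). Those of Psmb9 and Psmb10 were 1.53 (adjusted p = 0.00251) and 1.20 (adjusted p = 0.00891), and that of Tap1 was 1.18 (adjusted p = 0.00553); Psmb9 and Tap1 are neighbours whose exons overlap on opposite strands, so their counts can share reads. H2-K1, a class I heavy chain with many close relatives among which reads can be split, had a log2 fold change of 1.81 (adjusted p = 0.00333). B2m, Tap1 and H2-K1 were named after their values were seen.

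All 12 members of an antigen presentation list chosen after the values were seen were higher in S, with a median log2 fold change of 1.19, and 9 of the 12 did not overlap between the series. Without S4 to S6 the 12 were still called, with a median of 0.70. Of the 12 interferon response genes, 11 met the count minimum in each series, and of these 7 were higher in S and 0 were lower. Irf7, a transcription factor of the response, ran from 25.8 to 117 CPM in S (median 67.8) and from 10.4 to 22.2 CPM in TKO (median 14.9) (log2 fold change 2.07, standard error 0.348, adjusted p = 0.0029). Ifit1 had a log2 fold change of 1.17 (adjusted p = 0.00237), Ifit3 of 1.09 (adjusted p = 0.00277), Isg15 of 1.09 (adjusted p = 0.00594) and Usp18 of 1.17 (adjusted p = 0.00457). Usp18 and Ifit1 did not overlap, and the lowest S value of Isg15 (6.28 CPM in S10) lay under TKO5 (6.42 CPM). Zbp1, a sensor of unusual nucleic acids, and Ifi27 did not overlap either, at 2.26 (adjusted p = 0.000624) and 1.42 (adjusted p = 0.00108); both were named after their values were seen. Of 36 proteasome genes tested, the 3 that were called were the immunoproteasome subunits, so the constitutive proteasome genes were not called.

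The response element can be read in the promoters of several of these genes, and those of Ifit1, Ifit3 and B2m are given as examples from called genes that hold it, 2 from the interferon response list and 1 from the antigen presentation list. In the 250 bases before the start, the letters GAAA, any 2 bases and GAAA again, on either strand, were found in 5 of the 9 interferon response genes with a RefSeq promoter (Ifit1, Ifit3, Isg15, Oas1a and Rsad2) and 2 of 10 antigen presentation genes (B2m and H2-T23), against 2.98% of all 32851 promoters of the same length. A match is a description and no measure of binding. The sequences are from RefSeq (GRCm38.p6), on the strand of the gene, at chr19:34640639-34640888 (plus) for Ifit1, chr19:34583279-34583528 (plus) for Ifit3 and chr2:122147437-122147686 (plus) for B2m, with the matches in capitals.
Ifit1: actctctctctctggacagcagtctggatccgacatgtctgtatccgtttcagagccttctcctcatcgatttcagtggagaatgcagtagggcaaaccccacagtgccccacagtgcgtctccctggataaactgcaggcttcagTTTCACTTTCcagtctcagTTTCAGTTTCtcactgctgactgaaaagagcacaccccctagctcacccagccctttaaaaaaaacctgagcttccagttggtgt
Ifit3: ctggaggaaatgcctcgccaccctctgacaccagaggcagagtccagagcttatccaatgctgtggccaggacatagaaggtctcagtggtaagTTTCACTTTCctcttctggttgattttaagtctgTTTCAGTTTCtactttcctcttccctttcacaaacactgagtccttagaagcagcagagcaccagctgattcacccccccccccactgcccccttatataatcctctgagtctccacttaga
B2m: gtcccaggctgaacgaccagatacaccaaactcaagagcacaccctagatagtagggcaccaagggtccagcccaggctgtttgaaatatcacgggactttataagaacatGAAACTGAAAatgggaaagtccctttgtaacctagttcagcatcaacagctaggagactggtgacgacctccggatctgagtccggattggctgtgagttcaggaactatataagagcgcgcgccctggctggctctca

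Some macrophage and complement genes were higher in S. C1qb, a chain of complement C1q that macrophages make, ran from 60.2 to 113 CPM in S (median 79.2) and from 46.2 to 57.7 CPM in TKO (median 51.4) (log2 fold change 0.66, standard error 0.139, adjusted p = 0.00917). Csf1r, the receptor that macrophages need to survive, had a log2 fold change of 0.66 (adjusted p = 0.0273), and of 10 macrophage genes that met the count minimum in each series 4 were higher in S and 0 were lower. Without S4 to S6, 0 of all 11 tested were called, with a median of 0.33. The class II genes H2-Aa, H2-Eb1 and H2-DMb1 and the invariant chain Cd74, which present antigen on macrophages and B cells, were higher in S as well (1.42, 1.25, 1.40 and 1.39). The other 3 tested members of the class II list, which was chosen after the values were seen, were not called. The summed level of the list was 391 to 718 CPM in S4 to S6, 119.8 to 255 CPM in S10 to S12 and 116 to 204 CPM in TKO. Without S4 to S6, 0 of the 7 were called (median 0.21). C4b, a complement component named after its values were seen, ran from 20.6 to 79.7 CPM in S (median 39.3) and from 6.99 to 16.1 CPM in TKO (median 9.25). Its log2 fold change was 2.05 (adjusted p = 0.00181), and it was highest in S11. Of 7 tested genes of a complement list chosen after the values were seen, 4 were higher in S and 0 were lower. Without S11 and S12, 2 were called. The lymphocyte list had no member that reached the count minimum.

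The called genes of cytosolic ribosomal proteins were higher in S. Rpl35 ran from 22 to 46 CPM in S (median 31.4) and from 7.42 to 14 CPM in TKO (median 10.7) (log2 fold change 1.57, standard error 0.188, adjusted p = 0.000507) and Rpl23a from 9.49 to 18 CPM in S (median 13.3) and from 2.41 to 5.12 CPM in TKO (median 4) (log2 fold change 1.83, standard error 0.198, adjusted p = 0.000301). Rpl17, at 368 to 489 CPM in S, had a log2 fold change of 0.50 (adjusted p = 0.00612). Of 77 genes for cytosolic ribosomal proteins, 35 were higher in S and 0 were lower, with a median log2 fold change of 0.31, and 69 of the 77 had a positive value. The median stayed positive with upper-quartile scaling (0.35), DESeq2 (0.31) and limma on FPKM (0.38), and was 0.23, with 24 called, with the length trend described below removed. Many of these genes have processed copies elsewhere in the genome, so reads can be split between a gene and its copies. Of 28 tested pseudogenes of ribosomal proteins, a list chosen after the values were seen, 20 met the count minimum in each series, of which 10 were higher in S and 0 were lower. The gene with the smallest adjusted p was Gm14303 (chr2:172509521-172509691, exon length 171 bases, processed pseudogene), named after its values were seen, at 25 to 52.1 CPM in S (median 32.3) and from 2.67 to 5.56 CPM in TKO (median 3.63) (log2 fold change 3.23, standard error 0.222, adjusted p = 3.62e-06). It was also the gene called in the WT comparison below. Of 76 genes of the mitochondrial ribosome 0 were called in edgeR, with 8 under an unadjusted p of 0.05 and 1 called by DESeq2, and the median was 0.05.

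Malat1 and, among antisense genes and TEC transcripts, most of the called members were higher in TKO. Malat1, a long RNA kept in the nucleus (chr19:5795690-5802672), ran from 126 to 426 CPM in S (median 346) and from 895 to 1251 CPM in TKO (median 1104) (log2 fold change -1.81, standard error 0.234, adjusted p = 0.000722). The lowest TKO heart lay well above the highest S heart. Lncpint, another long non-coding RNA, was named after its values were seen and had a log2 fold change of -1.88 (adjusted p = 0.000397). Kcnq1ot1, an imprinted antisense RNA whose body overlaps Kcnq1, had one of -1.06 (adjusted p = 0.0308), which was -0.49 (adjusted p = 0.262) with the length trend described below removed. Neat1 and Meg3 were not called, so 2 of the 4 tested nuclear-retained RNAs were (median -0.56), and with that trend removed 1 was (median -0.13). Among transcripts annotated TEC, gene models still to be checked by experiment, 55 of 215 were higher in TKO and 0 were higher in S (median -0.59). Antisense genes had 33 of 303 higher in TKO and 1 higher in S. The library kit does not mark strand, so reads of an antisense gene and its partner cannot be told apart. Processed pseudogenes, which are short and intronless, had 45 of 192 higher in S and 8 higher in TKO. These counts by biotype take all tested genes. Those that met the count minimum within a single series are not set apart, and for them the filter largely set the direction.

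Among the 12654 protein-coding genes the fold change followed exon length. With the genes in 5 groups of near equal size, in the shortest group (up to 2561 bases of exon) 340 genes were higher in S and 32 higher in TKO, with a median log2 fold change of 0.15. In the longest group (7767 bases and more) 26 were higher in S and 364 higher in TKO, with a median of -0.17, and the 3 groups between had medians of 0.09, 0.02 and -0.05. Spearman's rho across genes, which are not independent replicates, was -0.367 with exon length and 0.207 with GC content. The medians rose from -0.07 in the group of genes with the least GC to 0.12 in the group with the most. Per library, the longest group took 14.1% to 17% of non-mitochondrial counts in S and 16.3% to 18.8% in TKO, with S6 lowest and TKO2 highest. After the trend with exon length was removed from each library by lowess, 1148 genes (8.16%) were called, 953 of them also called without this step.

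**Figure D3:**
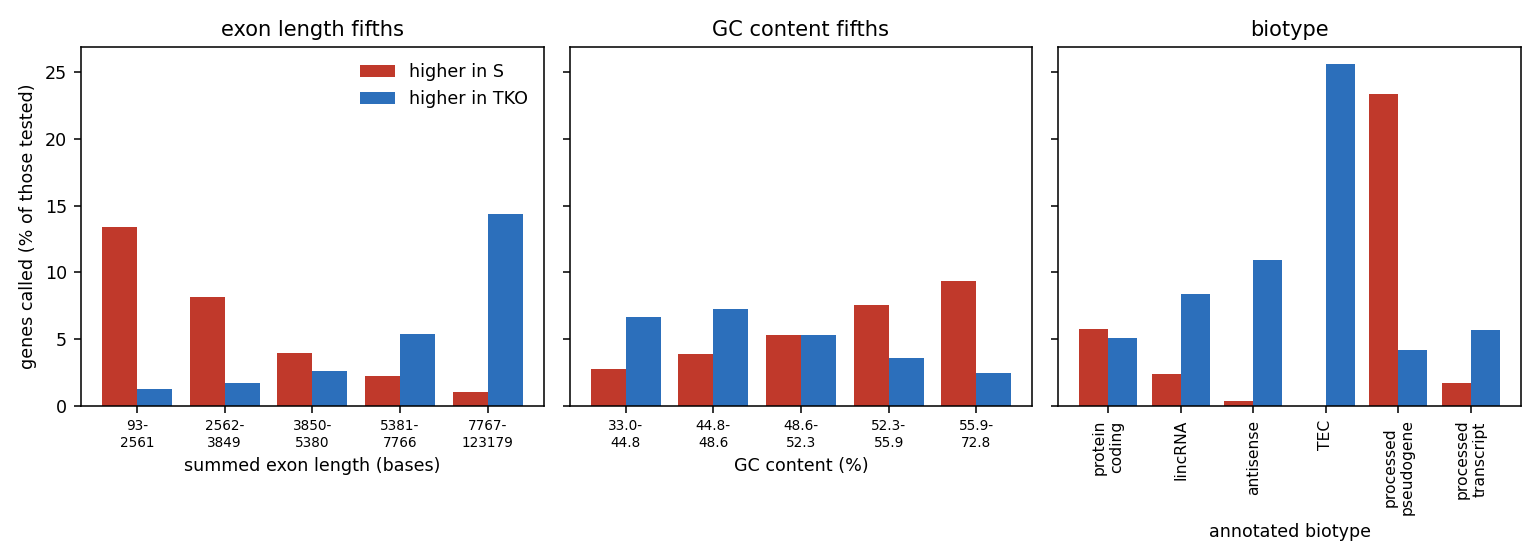
Share of tested genes called higher in S (red) and higher in TKO (blue), in percent, by 5 groups of exon length, 5 groups of GC content and annotated biotype. Genes that met the count minimum within a single series are included. Calls higher in S went from 13.4% of genes in the shortest group to 1.03% in the longest, where 14.4% were higher in TKO.

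Of 11 listed cardiomyocyte genes Ttn, Ryr2 and Mybpc3 were called, all higher in TKO, and Ttn and Ryr2 are very long. Ttn, the giant spring protein of the sarcomere (exon length 116825 bases), ran from 1910.1 to 2313 CPM in S (median 2174) and from 2796 to 4079 CPM in TKO (median 3011) (log2 fold change -0.57, standard error 0.103, adjusted p = 0.00444). Ryr2, the calcium release channel of the sarcoplasmic reticulum, had a log2 fold change of -0.44 (adjusted p = 0.0252) and did not overlap. With the length trend removed Ttn was 0.13 (adjusted p = 0.463) and Ryr2 -0.00498 (adjusted p = 0.982). Mybpc3, cardiac myosin-binding protein C, has 4163 bases of exon, ran from 1485 to 2194 CPM in S (median 1976) and from 2480.1 to 3898 CPM in TKO (median 2639), and kept its fold change (-0.56 and, with the trend removed, -0.59, adjusted p = 0.0117). TKO2 was the highest library for Ttn, Ryr2 and Mybpc3. Of 6 ventricular genes 0 were called in edgeR or DESeq2 and 1 had an unadjusted p under 0.05; Myl2 had a log2 fold change of -0.20 (adjusted p = 0.314) and Myh6, the main myosin of the adult mouse heart, one of -0.33 (adjusted p = 0.0847).

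Before removal of the length trend, most of the calcium handling genes called were higher in TKO. Of 26 that met the count minimum in each series, 6 were higher in TKO (Itpr2, Hrc, Cacna1c, Itpr1, Ryr2 and Camk2b) and 1 was higher in S (Calm2); Sln met it within S alone. The median log2 fold change of all 27 tested was -0.08. Itpr2, an inositol trisphosphate receptor, ran from 17.5 to 38.3 CPM in S (median 29.3) and from 41.8 to 58.7 CPM in TKO (median 53.2) (-0.83, adjusted p = 0.00457), and Cacna1c, the pore of the L-type calcium channel, had a log2 fold change of -0.42 (adjusted p = 0.0195). Hrc, a calcium-binding protein of the sarcoplasmic reticulum, ran from 599 to 816 CPM in S (median 679) and from 880.3 to 1061 CPM in TKO (median 949), a log2 fold change of -0.48 (adjusted p = 0.00783), and -0.58 with the length trend removed. With that trend removed 4 of the 27 were called, and 2 of these were higher in TKO. Calm2, a calmodulin gene, had a log2 fold change of 0.41 (adjusted p = 0.019). Elovl1, the one member called of 10 genes of very-long-chain fatty acid elongation (a share near the 11.3% of all genes tested), the pathway that Tecrl's relative Tecr serves, was higher in S at 0.53 (adjusted p = 0.00737).

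Mitochondrial genes took a smaller share of the counts in S. The share was 21.5% ± 1.18 in S and 23.3% ± 1.55 in TKO (SD, n = 6 each), a difference of -1.89 percentage points (exact permutation test, two-sided, p = 0.04545). It ran from 19.95% (S6) to 22.6% (S10) in S and from 21.8% (TKO3) to 25.7% (TKO5) in TKO, so the series overlapped. Leaving out 1 library gave p from 0.03247 to 0.09307, and p was above 0.05 without S4, S6, S12, TKO1, TKO5 or TKO6. The table holds the 13 protein-coding mitochondrial genes and no mitochondrial ribosomal RNA. Of 12 tested, mt-Nd5, a subunit of complex I, was called: it ran from 9066 to 13728 CPM in S (median 11720) and from 15058 to 20852 CPM in TKO (median 17820) (log2 fold change -0.59, standard error 0.115, adjusted p = 0.00612) and overlaps mt-Nd6 on the other strand. With the length trend removed 4 of the 12 were called, all higher in TKO, and the median of the list moved from -0.08 to -0.25, while without S4 to S6 0 were higher in TKO and 1 higher in S. Without removal of the trend the other 11 had log2 fold changes between -0.23 (mt-Nd4) and 0.50 (mt-Nd4l, adjusted p = 0.0533).

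Nuclear genes of energy metabolism gave few calls, and more with the length trend removed. Of 78 genes for respiratory chain subunits, Cox7a1, the heart and muscle form of a complex IV subunit, was higher in TKO (-0.59, adjusted p = 0.00471, 756 to 951 CPM in S and 1098 to 1645 CPM in TKO) and Cox5a was higher in S (0.39, adjusted p = 0.0468). The median of the 78 was -0.03. With the length trend removed 14 of the 78 were higher in TKO and 0 higher in S, with a median of -0.13. Of 20 beta-oxidation genes, 17 of glycolysis and 13 of glycogen metabolism 0 were called in edgeR, with medians of -0.11, -0.04 and -0.17; 1, 5 and 4 of them had an unadjusted p under 0.05, and DESeq2 called 0, 2 and 1. With the length trend removed 1, 2 and 0 were called. Pdk4, the kinase that turns the heart from glucose to fat in fasting, ran from 1459.9 to 4714 CPM in S (median 3446) and from 3103 to 4444 CPM in TKO (median 3820), and Angptl4, another fasting gene, had a log2 fold change of 0.06 (adjusted p = 0.874). Of 9 fasting and PPAR genes 0 were called in edgeR or DESeq2, and 1 had an unadjusted p under 0.05; 2 were called without S11 and S12. Chchd10, a mitochondrial protein of the cristae, was named after its values were seen and had a log2 fold change of 1.18 (adjusted p = 0.000357), with no overlap.

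Of 14 immediate early genes, which rise within minutes of stress or handling, 0 were called in edgeR or DESeq2, and 1 had an unadjusted p under 0.05. Fos ran from 6.66 to 13.5 CPM in S (median 9.38) and from 5.18 to 31.7 CPM in TKO (median 8.68), Egr1 had a log2 fold change of -0.21 (adjusted p = 0.722), Jun of -0.12 (adjusted p = 0.575) and Atf3 of -0.50 (adjusted p = 0.411). Of 15 heat shock genes 2 were called, a share near the 11.3% of all genes tested. Hspa1a, an inducible HSP70, had 121 CPM in S11, 14 in S6 and 10.8 in S5, and 2.88 to 4.88 CPM in S4, S10 and S12, against 1.24 to 3.68 CPM in TKO (3.28, adjusted p = 0.025, and 1.45 without S11). Hspa1b, its near-identical neighbour, gave 3.73 (adjusted p = 0.0195), and 1.71 without S11; reads can be shared between the pair. The constitutive Hspa8 (0.29, adjusted p = 0.302) and Hsph1 (0.14, adjusted p = 0.76) were not called, although S11 was highest for both. Without S11 and S12 2 of the 15 were higher in S and 1 higher in TKO, the same counts as with the length trend removed.

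Clock genes differed in part. Nr1d1, the repressor REV-ERB alpha, whose transcript peaks in the light phase in mouse tissues, ran from 27.9 to 58.2 CPM in S (median 35.5) and from 12.7 to 22.7 CPM in TKO (median 18.1) (log2 fold change 1.07, standard error 0.172, adjusted p = 0.00246) and did not overlap. Its exons overlap Thra on the opposite strand. Dbp, an output gene of the clock, had a log2 fold change of 0.67 (adjusted p = 0.0381) with overlap. On the other side of the cycle Nfil3, which opposes Dbp, was higher in TKO (-1.14, adjusted p = 0.021), as were Cry1 (-0.40, adjusted p = 0.0146) and Clock (-0.41, adjusted p = 0.0202). Arntl, the partner of Clock, ran from 4.15 to 13.2 CPM in S (median 7.66) and from 5.78 to 14.8 CPM in TKO (median 10.3) and was not called (-0.40, adjusted p = 0.305), nor was Per1 (-0.16, adjusted p = 0.416). Of 10 day-side genes 2 were higher in S and 0 were lower (median 0.02), and of 6 night-side genes 3 were higher in TKO (median -0.41). With the length trend removed 1 day-side and 2 night-side genes were called, and without S11 and S12 3 and 3. Of all genes tested 11.3% were called, with 5.67% of the tested genes higher in S and 5.63% higher in TKO. The time of day of harvest is not given in the sources used here. Zbtb16 and Klf9, which glucocorticoids induce, were higher in TKO (-0.66, adjusted p = 0.0124 and -0.46, adjusted p = 0.0385), 2 of 6 tested genes of that list, and 1 without S11 and S12.

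Genes of the endoplasmic reticulum stress and amino acid response were higher in S in 4 of 15 cases: Ddit3 (0.82, adjusted p = 0.00344), Asns (1.03, adjusted p = 0.0196), Manf (0.46, adjusted p = 0.0274) and Trib3 (0.91, adjusted p = 0.0488). Of all genes tested 11.3% were called, 5.67% of them higher in S. The first 3 did not overlap, and Ddit3 and Manf overlap other genes in their exons. Without S11 and S12, 2 of the 15 were called. Adm, the vasodilator peptide adrenomedullin, and Ankrd37, both induced by hypoxia, were higher in S (0.55, adjusted p = 0.0229 and 1.17, adjusted p = 0.0267). They were 2 of 10 hypoxia genes, beside 11.3% of all genes tested. With the length trend removed 0 of the 10 were called, and without S11 and S12 also 0. Ankrd1, a stretch-induced gene of the fetal stress list, had 2936 CPM in S11 and a log2 fold change of 1.63 (adjusted p = 0.0278), which was 1.04 (adjusted p = 0.0503) without S11. It was the one of 4 that was called.

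Vessel and stromal genes showed both directions. Flt1, a receptor for the growth factor VEGF, ran from 192 to 316 CPM in S (median 255) and from 331 to 527 CPM in TKO (median 431) (log2 fold change -0.70, standard error 0.14, adjusted p = 0.00698). Cldn5, a junction protein of endothelium, was higher in TKO (-1.36, adjusted p = 0.0336), with TKO1 and TKO2 at 195 and 229 CPM, and Emcn was higher in S (0.86, adjusted p = 0.0259), with S11 at 157 CPM. Of 9 endothelial genes tested 1 was higher in S and 2 were higher in TKO. Of all genes tested 11.3% were called, with 5.67% of the tested genes higher in S and 5.63% higher in TKO. Notch1, named after its values were seen, ran from 33.3 to 51.2 CPM in S (median 45.1) and from 74.9 to 89.1 CPM in TKO (median 80.4), a log2 fold change of -0.90 (adjusted p = 0.000507), and Notch3 of pericytes had one of -0.64 (adjusted p = 0.0137). Of 7 smooth muscle genes Actg2 (1.51, adjusted p = 0.00987) and Cnn1 (1.50, adjusted p = 0.019) were higher in S and the other 5 were not called (median 0.16). Wt1, a marker of epicardium, was higher in TKO (-1.13, adjusted p = 0.0364), but 7 of the 8 mesothelial and epicardial genes had values above 0 (Msln 1.43, Upk3b 1.18), and Wt1 was the one member below 0 and the one called (median of the list 1.13, and -0.56 without S11 and S12). None (0) of the 8 was called once the length trend was removed, and 0 of the 6 still tested without S11 and S12. Col8a1 (-0.71, adjusted p = 0.0352) and Col13a1 (-0.82, adjusted p = 0.0473) were the 2 of 31 collagen genes called, both higher in TKO. That share is near the 5.63% of all genes tested that were higher in TKO. Removing the length trend left 0 of the 31 called, and without S4 to S6 0 were higher in TKO and 1 higher in S. Of 9 fibroblast genes 0 were called in edgeR, with 3 under an unadjusted p of 0.05 and 2 called by DESeq2. Of the conduction system (7 tested), brown adipocyte (2), neutrophil (5), lung epithelium (1), skeletal muscle (4) and histone (9) lists 0 genes were called in edgeR or DESeq2, and 4 had an unadjusted p under 0.05 (histone 2, brown adipocyte 1 and lung 1). The thymocyte list had no tested member. Sox10 of nerve sheath cells met the count minimum within S alone, and the other 3 nerve genes tested (Cdh19, Dbh and Stmn2) had values of -0.33, -0.32 and -0.17 and were not called. Without S11 and S12, 0 of the 4 were called. Of 11 SR splicing factors Srsf2 was higher in S (0.33, adjusted p = 0.0473) and Srsf4 higher in TKO (-0.36, adjusted p = 0.0387), beside 11.3% of all genes tested. With the length trend removed 1 of the 11 was called, and without S11 and S12 also 1. Kcnj8, a potassium channel of pericytes, was higher in S (0.33, adjusted p = 0.046).

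Several of the weaker calls did not hold with each library left out in turn. Of the 91 called genes examined one by one that met the count minimum in each series, 25 had an adjusted p of 0.05 or more in edgeR when some single library was left out, and 0 changed sign. Adm, Cacna1c and Nfil3 lost the call without TKO1, and the other 22 without 2 to 11 of the libraries in turn, with an adjusted p of at most 0.0998. Those 22 were Ankrd1, Ankrd37, Cldn5, Col13a1, Col8a1, Cox5a, Csf1r, Dbp, Emcn, Hba-a1, Hbb-bt, Hspa1a, Itpr1, Kcnj8, Kcnq1ot1, Klf9, Manf, Ryr2, Srsf2, Srsf4, Trib3 and Wt1. Other settings kept fewer calls. Of 106 named genes called, those that met the count minimum within S alone included, 17 stayed called with the Y-linked level as a covariate. In the 8 libraries with Y-linked reads 2 of 106 did, with labelled male alone 4 of 105, and with all 20 libraries in one fit 68 of 106. The subsets hold fewer libraries, and the cause was not tested.

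**Figure D4:**
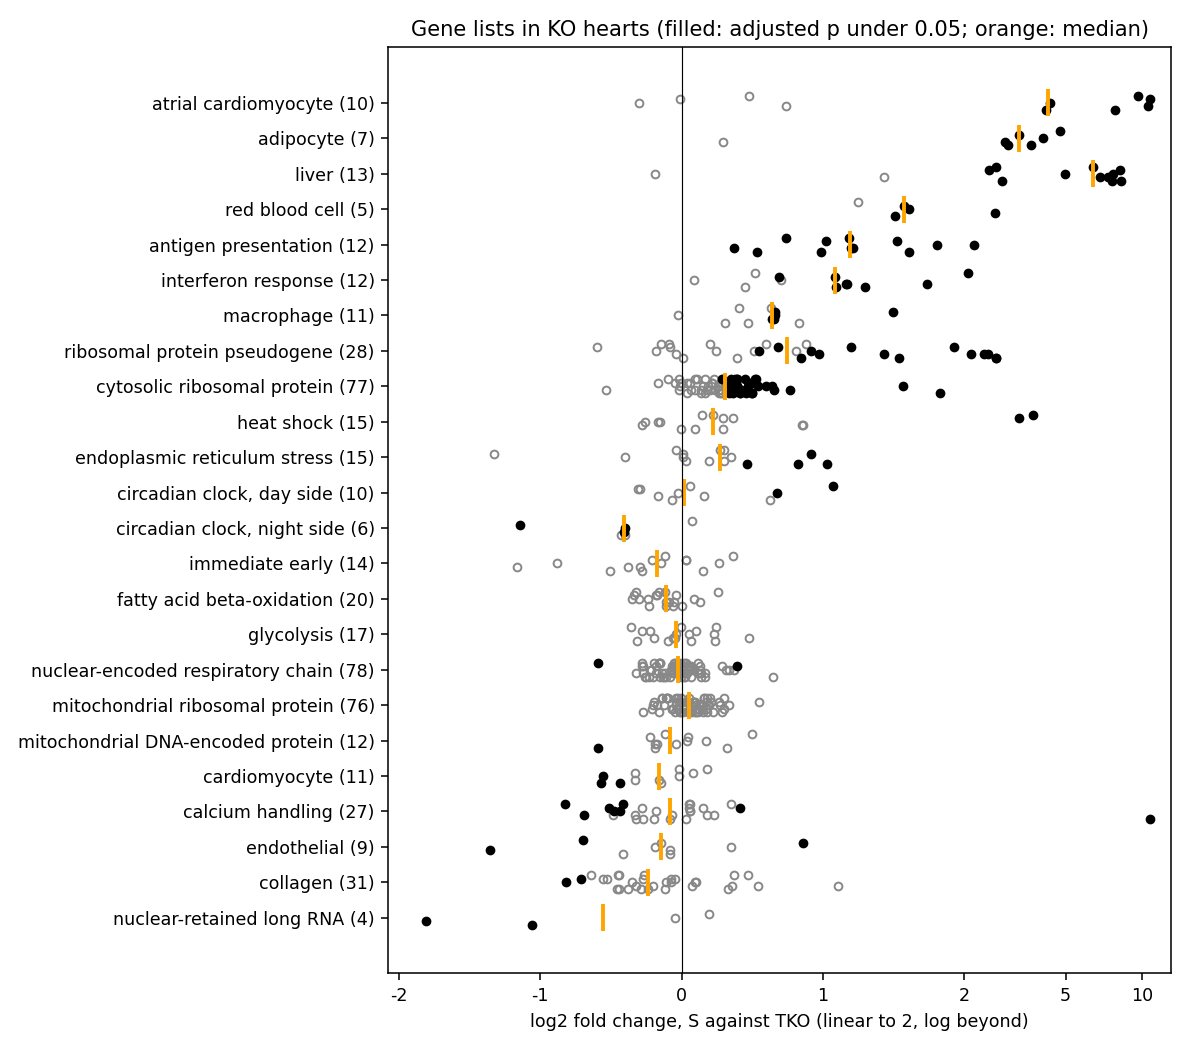
Log2 fold change of S against TKO in KO hearts for the tested members of 24 lists (number in brackets), filled where the adjusted p was under 0.05, with the median in orange; the axis is linear to 2 and logarithmic beyond. Members that met the count minimum within S alone, such as those of the liver and adipocyte lists, have fitted values that rest on the prior count and are no measure of size. The 12 antigen presentation genes all lay to the right of 0, and the beta-oxidation and glycolysis genes lay on both sides with none filled.

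The protein-coding genes that were highest in TKO relative to S, without overlap and with a mean of at least 5 CPM in TKO, were of mixed kinds. Myo7b, an unconventional myosin, ran from 0.758 to 1.73 CPM in S (median 1.38) and from 3.5 to 10.8 CPM in TKO (median 5.17) (log2 fold change -2.24, standard error 0.315, adjusted p = 0.00132), with TKO1 and TKO2 highest. Atcay followed with -1.90 (adjusted p = 0.00216) and Rnf125, a ubiquitin ligase, with -1.60 (adjusted p = 0.00471). Cenpf, a kinetochore protein of dividing cells, ran from 3.54 to 6.64 CPM in S (median 5.34) and from 9.71 to 21.2 CPM in TKO (median 14.7) (-1.50, adjusted p = 0.000562). Fosl2, a member of the AP-1 family, ran from 42.5 to 95.7 CPM in S (median 63.3) and from 98.8 to 239 CPM in TKO (median 137) (-1.31, adjusted p = 0.005). The others were Papln (-1.55), Gpr17 (-1.30), Lcor (-1.29), Klf12 (-1.29) and Dgkh (-1.25). Zbtb20, a repressor with long exons, was named after its values were seen and had a log2 fold change of -0.93 (adjusted p = 0.000301). Gpr17 lies opposite Lims2 and Zbtb20 opposite Gm9968, so reads can be shared.

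Within the S hearts, S4 to S6 differed from S10 to S12, which the labels give as female and male although both carried Y-linked reads. In edgeR 182 genes were called (1.29% of 14075), 83 higher in S4 to S6 and 99 higher in S10 to S12. Among the antigen presentation genes 6 of 12 were higher in S4 to S6 and 0 were lower, and of the macrophage and class II genes 4 of 11 and 4 of 7. The antigen presentation and class II lists were chosen after the values were seen. Irgm1, an interferon-induced GTPase named after its values were seen, had 64.7 to 90.7 CPM in S4 to S6, 22.1 to 29.7 CPM in S10 to S12 and 15.6 to 23.8 CPM in TKO. Ifi27 was higher in S4 to S6 by 0.93 on the log2 scale (adjusted p = 0.00229) and B2m by 1.28 (adjusted p = 0.00668). Ppargc1a, a coactivator of mitochondrial genes that was also named after its values were seen, was higher in S4 to S6 (1.65, adjusted p = 0.00625), at 351 to 447 CPM against 109 to 152 CPM, while TKO ran from 179 to 446 CPM. Of the atrial genes 4 of 10 were higher in S10 to S12, namely Dkk3, Mybphl, Kcnj3 and Tbx5. Within TKO, TKO1 to TKO4 against TKO5 and TKO6 gave 0 calls in edgeR, with 871 genes under an unadjusted p of 0.05 and 35 called by DESeq2. The series difference itself did not differ between the labelled sexes for any gene at an adjusted p under 0.05 (edgeR, 1430 genes under an unadjusted p of 0.05). The count of 182 fell to 26 without S12, 27 without S5, 29 without S6 and 58 without S4, was 79 without S11 and rose to 1443 without S10.

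The WT hearts of both series share no library with the KO comparison. In edgeR 13953 genes were tested between the 6 S and the 2 WT libraries and 1 was called, Gm14303 (higher in S by 2.82 on the log2 scale, adjusted p = 0.0348), with 1409 under an unadjusted p of 0.05 and 90 called by DESeq2. Of the 1591 genes called in KO, 1503 were tested in WT and 1373 of these (91.35%) had the same sign, against 71.02% of the 13672 genes tested in both. Genes called higher in S had a median log2 fold change of 0.73 in KO and 0.60 in WT, and genes called higher in TKO had medians of -0.55 and -0.34. The medians and the same-sign count do not set apart genes that met the KO count minimum within a single series. Among the genes called higher in S these were 125 with the minimum met within S alone, whose KO direction the filter largely set. The sex-linked reads ran in opposite directions in these comparisons. Malat1 had 1046 CPM in WT2 and 421 CPM in WT1, against 271 to 452 CPM in the WT hearts of S, so WT1 lay among them, and Rpl35 had 16.9 and 11.4 CPM against 25.6 to 36.8 CPM. Atrial reads stood out in 2 of the 6 WT hearts of S, S7 and S9, with summed levels of 8048 and 6563 CPM, and in neither WT1 nor WT2 (162 and 189 CPM). The adipocyte list summed to 1425 CPM in S7 and to at most 54.5 CPM in the other 7 WT hearts. Antigen presentation summed to 2891 to 5065 CPM in S1 to S3, 1457 to 2120.3 CPM in S7 to S9 and 1393 and 1793 CPM in WT1 and WT2. The difference of the series difference between KO and WT was tested over 14701 genes and 0 were called in edgeR and in DESeq2, with 632 under an unadjusted p of 0.05 in edgeR. The WT comparison has 2 libraries on one side.

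**Figure D5:**
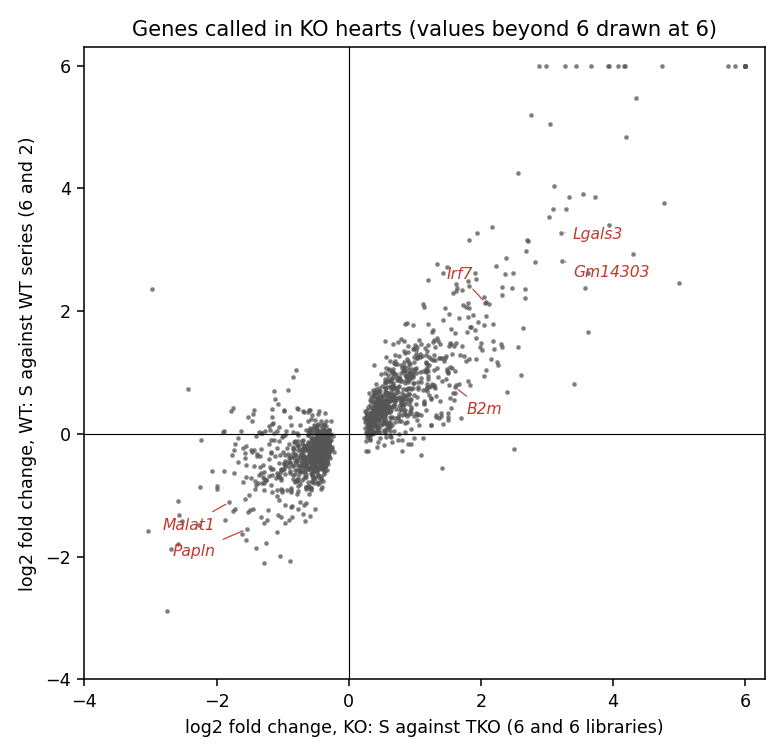
Log2 fold change of S against the other series for each gene called in KO hearts, in KO on the x axis and in WT on the y axis, drawn at 6 where larger. Most points lie in the lower left and upper right, 1373 of 1503 with the same sign; the values of genes nearly without reads in one series rest on the prior count.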

How the data were processed

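Per the labels, RNA was extracted with Trizol, poly-A selected, prepared with a NEBNext Ultra kit and sequenced as 150 bp pairs. The submitters' processing notes name HISAT2, HTSeq 0.6.1p2, DESeq2 1.26.0 and GRCm38. The deposited table held raw read counts per gene and FPKM values that the authors computed from them. Its columns of the 20 libraries were used.

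X- and Y-linked genes were removed from the main fits, genes reaching 10 counts in 3 or more libraries were kept, and edgeR 4.0.16 (TMM, quasi-likelihood) in R 4.3.3 was fitted to each set of libraries. P-values were adjusted by Benjamini-Hochberg over all genes tested. Every adjusted p is from edgeR unless another tool is named. DESeq2 1.42.0 and limma 3.58.1 on log2(FPKM + 1), for genes reaching an FPKM of 0.5, were alternatives. The share of mitochondrial counts was compared by an exact permutation test over 924 assignments. The procedure was tested on simulated data. Trends with exon length were removed by lowess (span 0.3).

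Genes named were up to 10 in each direction with the largest fold change without overlap and a mean of at least 5 CPM in the higher series, up to 6 called genes of each list, a fixed set of markers, and genes stated to be named after their values were seen. The members and the gene lists were chosen with earlier results of these data known.

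Some items are not reported here.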

Additional observations from a re-analysis of the deposited data

Results flagged for a closer look

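In each KO series the highest and lowest of the 6 libraries were compared with their nearest neighbour by Dixon's ratio. Chance marks about 1 in 20 groups, and the named genes are not independent of each other.

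S11 stood apart from the other S hearts for most of the marked genes. Its atrial sum was 7921 CPM, with Sln at 973, Myl7 at 2345, Mybphl at 257, Myl4 at 2843 and Nppa at 1047 CPM. Its haemoglobin genes were at 127 CPM (Hba-a2), 650 CPM (Hba-a1), 882 CPM (Hbb-bs) and 107 CPM (Hbb-bt). Its heat shock genes Hspa1a, Hspa1b, Hspa8 and Hsph1 were at 121, 172, 2494 and 87.7 CPM. S11 was also highest for Lgals3 (107 CPM), Emcn (157 CPM), Ankrd1 (2936 CPM), Nr1d1 (58.2 CPM) and mt-Nd4l (29.4 CPM).

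S4 stood above the rest of S for Alb (81.7 CPM), Serpina3k (22.2 CPM) and Zbtb16 (128 CPM), S12 for Bmp10 (174 CPM) and S10 for Usp18 (7.38 CPM). S6 stood below for Gpr17 (1.64 CPM) and Per1 (83.9 CPM).

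Among TKO hearts, TKO2 was apart for Mybpc3 (3898 CPM), Ryr2 (1412 CPM), Myh6 (22454 CPM), Atf3 (99.6 CPM), Pck1 (1.41 CPM) and Serpina3k (0.0705 CPM). TKO6 was apart for Myl2 (10581 CPM), Cox7a1 (1645 CPM), mt-Co2 (1151 CPM), mt-Atp6 (457 CPM), Calm2 (122 CPM), Fcgr1 (1.36 CPM) and Kap (0.562 CPM). TKO4 was apart for Hba-a1 (163 CPM), Myl7 (1.16 CPM), Cyp2e1 (1.16 CPM), Adipoq (0.428 CPM) and Bmp10 (0.0611 CPM), and TKO1 for Cry1 (39.6 CPM). The values of Serpina3k in TKO2 and Bmp10 in TKO4 are 1 read each, and that of Kap in TKO6 is 7 reads, with 0 in the other 5 TKO libraries, where any read is marked by the way the ratio is built.

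Reads of sex-linked genes, which were left out of the main comparisons, went against the labels. Y-linked reads summed to 210.8, 179.5 and 179.1 CPM in S4, S5 and S6, labelled female, against 0 CPM in TKO1 to TKO4, also labelled female. Xist was at 279.3, 280.9 and 358.3 CPM in S7, S8 and S9, labelled male, against at most 0.896 CPM in TKO5 and TKO6, also labelled male.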

How the results depend on the processing

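The KO count of 1591 stayed within 1.5 times with DESeq2 (2250), upper-quartile scaling (1657, 60.11% higher in S), limma (1451), other count filters (1291 and 1783) and labelled sex as a covariate (1591). It was 876 with the labelled female libraries alone, 5 with the labelled male alone, 865 with all 20 libraries in one fit and 899 where a change of 0.58 or more on the log2 scale was also required. Among alternatives chosen after seeing the data it was 2 in the 8 libraries with Y-linked reads and 637 with the atrial level as a covariate. With the Y-linked level as a covariate it was 35. Fewer libraries entered the subsets; otherwise the cause was not tested. Leaving out 1 library gave 1001 (without TKO3) to 1918 (without S4), with 1005 without TKO1, 1046 without TKO2 and 1048 without S6.

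In the KO comparison S4 to S6 and TKO4 to TKO6 share numbers. Their deviations had correlations of -0.0345, -0.0315 and -0.0435, so the numbers gave no pairing, and the replicate block left 273 calls. In the WT comparison S1 and S2 share numbers with WT1 and WT2 (correlations 0.185 and 0.143). With 2 pairs the numbers are not shown to pair the libraries, and the replicate block over these 4 libraries alone, chosen after seeing the data, gave 62 calls in place of 1.

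The WT count of 1 was 90 with DESeq2, 0 with labelled male alone, and 0 to 1 without 1 library: 0 without S2, S7, S8, WT1 or WT2. The count of 182 within the S hearts was 602 with DESeq2, 1308 with no filter, and 26 to 1443 without 1 library. Within TKO, 0 became 35 with DESeq2, 214 with no filter and 0 to 3 without 1 library (3 without TKO5).

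The difference in mitochondrial share was -3.0016 points with labelled male alone (p = 0.1, exact permutation test, the smallest that 10 assignments allow), -1.66 points with labelled female alone (p = 0.1143, exact) and -2.205 to -1.415 points without 1 library. Counting mitochondrial protein genes alone changes nothing, since the table holds no others.

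Of the single genes, Nppa was -0.46 with the atrial covariate, a sum that includes Nppa itself, so that this value says nothing of the result; Ttn turned to 0.13 with the length trend removed and to 0.15 with length and GC content removed, and Ryr2 to 0.018 with both.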
